A study of Mus musculus with 6 samples.

Results

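The genes described here are the 10 class I antigen presentation genes B2m, H2-K1, H2-D1, H2-T23, Tap1, Tap2, Tapbp, Psmb8, Psmb9 and Psmb10, taken by symbol from a table of read counts for 46095 gene symbols. They were measured by RNA sequencing in primary cultures labelled as nucleus pulposus cells, the cells at the gel-like centre of a spinal disc, from mice of 8 weeks of age. The tissue was digested with collagenase and the cells were grown in medium with 20% fetal bovine serum to passage 2. The 3 groups, with 2 libraries each, are wild type, heterozygous for Chsy3, and Chsy3 knockout, and every library is labelled male. Chsy3 encodes a chondroitin sulfate synthase, which lengthens the sugar chains of proteoglycans. The mouse strain, the altered part of the gene and the number of animals behind each library are not stated in the labels. Whether the paired libraries of a group stem from different cultures or mice is not stated, so each p-value reflects only how these libraries vary, and that variation may be technical. No class I gene was altered by design, and the comparisons ask how the pathway's RNA differed when 1 or both alleles of Chsy3 were affected.

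Class I molecules show peptides from inside the cell on its surface, where CD8 T cells and natural killer cells read them. Each consists of a heavy chain (H2-K1, H2-D1 and H2-T23 in the mouse) and the invariant light chain beta-2-microglobulin, the product of B2m. Peptides are cut in the cytosol by the proteasome, whose catalytic subunits can be exchanged for those of the immunoproteasome (Psmb8, Psmb9 and Psmb10). The Tap1 and Tap2 transporter then carries them into the endoplasmic reticulum, where tapasin (Tapbp) helps to load them. Nearly every nucleated cell makes class I molecules, macrophages among them, and interferons raise the pathway through IRF factors and the transactivator NLRC5, among others.

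The upstream sequences of the 4 members whose log2 CPM averaged at least 3 (CPM are counts scaled by library size) are shown, because these members carry most of the results and differ from each other across the genotypes. Each is the 250 bases before the start site in RefSeq (GRCm38.p6), on the gene's strand, with matches to the searched motifs in capitals. H2-K1 has 2 listed starts, and the one shown lies further upstream. The stretches are chr2:122147437-122147686 on the plus strand for B2m, chr17:34000348-34000597 on the minus strand for H2-K1, chr17:36032702-36032951 on the minus strand for H2-T23 and chr8:105938393-105938642 on the minus strand for Psmb10.
B2m: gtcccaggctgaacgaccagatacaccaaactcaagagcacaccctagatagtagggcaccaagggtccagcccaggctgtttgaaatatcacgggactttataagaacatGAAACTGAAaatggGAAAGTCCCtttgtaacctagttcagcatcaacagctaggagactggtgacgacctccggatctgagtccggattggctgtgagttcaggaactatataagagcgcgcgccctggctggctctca
H2-K1: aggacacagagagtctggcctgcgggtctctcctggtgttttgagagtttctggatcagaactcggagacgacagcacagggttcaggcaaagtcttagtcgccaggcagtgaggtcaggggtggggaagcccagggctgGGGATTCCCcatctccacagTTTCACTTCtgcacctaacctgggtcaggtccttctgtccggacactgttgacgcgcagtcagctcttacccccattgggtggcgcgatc
H2-T23: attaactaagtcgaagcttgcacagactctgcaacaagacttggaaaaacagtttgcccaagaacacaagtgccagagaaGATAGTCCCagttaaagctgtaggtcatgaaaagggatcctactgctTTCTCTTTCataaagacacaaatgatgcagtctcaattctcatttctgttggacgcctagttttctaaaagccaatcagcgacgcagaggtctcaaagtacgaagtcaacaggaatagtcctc
Psmb10: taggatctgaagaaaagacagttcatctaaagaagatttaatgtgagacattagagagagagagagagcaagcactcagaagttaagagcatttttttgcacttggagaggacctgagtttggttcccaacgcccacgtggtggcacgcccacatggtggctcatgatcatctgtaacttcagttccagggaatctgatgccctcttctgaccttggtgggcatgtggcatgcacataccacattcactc

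Motifs were searched on both strands in windows of 300 bases, 250 before the start and 50 after it, in which 9 of the 10 members had an entry. The kappa B core GGGANTNNC, a form of the site bound by NF-kappa B, was found for B2m, H2-K1, H2-D1 and H2-T23, and in 4599 of all 32851 windows. The interferon response core GAANNGAAA was found for H2-K1 and H2-D1, and in 7.52% of all windows. A core with the other spacing, GAAANNGAA, was added after the sequences were seen, and it was found for B2m and H2-T23 and in 8.56% of all windows. The GAS core TTCNNNGAA, an interferon-gamma response motif, was found for Psmb8, and in 8.3% of all windows. In B2m the interferon core starts 139 bases before the start site and the kappa B core 125 bases before it. In H2-K1 they start 90 and 110 bases before it, and in H2-T23 123 and 170. The capitals in H2-K1 hold a kappa B match that reads on both strands, and no capitals overlap another motif. No match to these letters lies in the window of Psmb10. A match is a description of the letters and says nothing of binding.

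The libraries held 29622117 to 33899611 counts. Chsy3 had 284 and 284 counts in wild type, 167 and 197 in heterozygous and 118 and 76 in knockout libraries, and it was lower in knockout than in wild type by a log2 fold change of -1.53 ± 0.20 (standard error, SE, edgeR adjusted p = 3.68e-08). The Y-linked genes Ddx3y, Uty, Kdm5d and Eif2s3y had 0 counts in both heterozygous libraries and reads in the other 4, which goes against the male label. Xist, the RNA that silences an X chromosome in female cells, was read in all 6 libraries and at its highest in the heterozygous ones. Differences between the heterozygous group and the others therefore cannot be told apart from a difference in the sex of the animals. Xist stood at 654 to 664 CPM in wild-type and 651 to 654 in knockout libraries, beside their Y-linked reads. The male label is thus in doubt for these 4 libraries as well. Ddx3y and Eif2s3y were higher in knockout than in wild type (log2 0.35 and 0.38, edgeR adjusted p = 0.00733 and 0.0116). Whether sex also differed between wild type and knockout was not tested. The notochord markers T, Noto and Shh were listed at 0 in every library and the aggrecan gene Acan had 8 counts in total. Of 14 nucleus pulposus and notochord markers listed, 6 stayed below 1 CPM in every library, these 4 among them, and the others, such as Pax1, Sox9 and Col2a1, were read, with a sum over the list of 106 to 182 CPM per library. Summed macrophage markers reached 15549 to 15857 CPM in wild type, 18429 to 18547 in heterozygous and 17975 to 18163 in knockout libraries, with none of the 18 at 0. Summed fibroblast markers reached 38324 to 38936, 45039 to 46230 and 24139 to 24261 CPM, with none of the 12 at 0. Few genes lead these sums, with wild-type means of 7211.5 CPM for Lyz2, 15431 for Fn1 and 10593 for Col1a1. A sum need not follow the other markers of its list. In such mixed cultures, fewer cells of a type and less RNA per cell cannot be told apart.

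Of the 10 members, 8 lie on chromosome 17, and 7 of these (H2-K1, H2-D1, Tap1, Tap2, Tapbp, Psmb8 and Psmb9) lie in a stretch of 1.74 Mb, between Rab11b and Cchcr1, in which few genes had reads in any genotype. The stretch (33774900 to 35516837, GRCm38) was delimited after the counts were seen. Of its 105 coding genes 16, or 15.2%, had a mean of at least 1 CPM, against 58.1% of the 105 coding genes before it and 57.6% of the 20450 coding genes on all chromosomes. At 10 CPM the stretch held 3 genes, or 2.86%, against 44.0% of all coding genes. The 105 genes after it reached 23.8% at 1 CPM, and 44 of those are olfactory receptor genes. Of the 25 coding genes that follow directly, from Cchcr1 to H2-T23, 20 reached 1 CPM.

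Genes used by nearly all cells are among those without reads there. Csnk2b (a casein kinase subunit), Bag6, Rnf5, Clic1 and Prrc2a were listed at 0 in all 6 libraries, and 46 of the 105 genes had no reads. Rps18, which encodes a protein of the small ribosomal subunit, had a mean of 23.96 CPM and Rps28 of 2.99 CPM, against a median of 120.9 CPM over 77 ribosomal protein genes, of which 24 stood below Rps18 and 6 below Rps28. Low or absent counts of the 7 members in this stretch are therefore given as listed, and are not read as a low level of RNA in the cells. What leaves these genes with few counts was not tested. B2m on chromosome 2, Psmb10 on chromosome 8 and H2-T23 on chromosome 17 lie outside it.

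**Figure D1:**
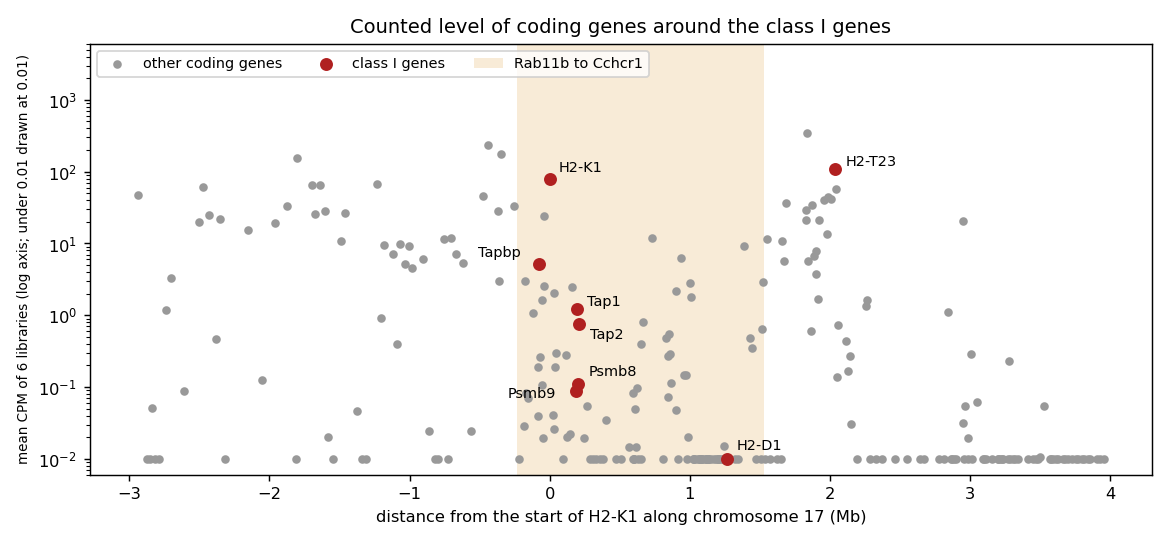
Mean counted level of coding genes (CPM, log axis, values under 0.01 drawn at 0.01) against the distance along chromosome 17 from the start of H2-K1 in Mb, with the class I genes in red. In the shaded stretch from Rab11b to Cchcr1, 3 of 105 genes reach 10 CPM, H2-K1 among them, while H2-T23 lies beyond it among genes with more reads.

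Read counts per kilobase of exon, averaged over the libraries, ordered the members. B2m stood at 1599 CPM per kb, H2-T23 at 37.2, H2-K1 at 27.1 and Psmb10 at 17.9 CPM per kb. Tapbp followed at 1.44 CPM per kb, Tap1 at 0.222 and Tap2 at 0.198, and Psmb8 and Psmb9 at 0.0331 and 0.0239. H2-D1 was listed at 0. Within each genotype the libraries of B2m and of H2-T23 lay above those of the next member on this scale. In wild type H2-K1 at 19.0 and 21.6 CPM per kb and Psmb10 at 18.9 and 18.0 were closer than the H2-K1 libraries were to each other, so their order there is within the spread, whereas in both other genotypes H2-K1 stood above Psmb10. Tap1 and Tap2 overlapped in heterozygous and in knockout libraries. H2-K1 and the last places, from Tapbp on, belong to the stretch with few reads, so their places are as listed only.

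The 7 members B2m, H2-K1, H2-T23, Tap1, Tap2, Tapbp and Psmb10 passed a filter on low counts made without regard to the list, Psmb8 and Psmb9 were added to the fit, and H2-D1 could not be fitted. In knockout against wild type, 6 of the 9 fitted members rose and 0 fell, where 38.1% of all 16063 tested genes were called and 19.2% were called higher. They are B2m, H2-K1, H2-T23, Psmb10, Tap1 and Tap2, and the calls of Tap1 and Tap2 rest on few reads. The same 6 passed when the heterozygous libraries were left out of the fit. In heterozygous against wild type, 0 members rose and 2 fell, H2-T23 and Psmb10, where 38.9% of all genes were called and 19.7% were called lower. In knockout against heterozygous, 6 members rose and 0 fell (B2m, H2-K1, H2-T23, Psmb10, Tap1 and Tapbp), where 37.1% of all genes were called and 19.1% were called higher. No median over the 9 is given, because the middle value belongs to Psmb9, Psmb8 or Tap2, which have few reads. Calls here are an adjusted p under 0.05 in edgeR's quasi-likelihood test. The comparisons share libraries and are not independent of each other. Members with no overlap between the groups are noted below, and 66.6% of all tested genes had none in knockout against wild type, 67% in heterozygous against wild type and 65.7% in knockout against heterozygous.

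**Figure D2:**
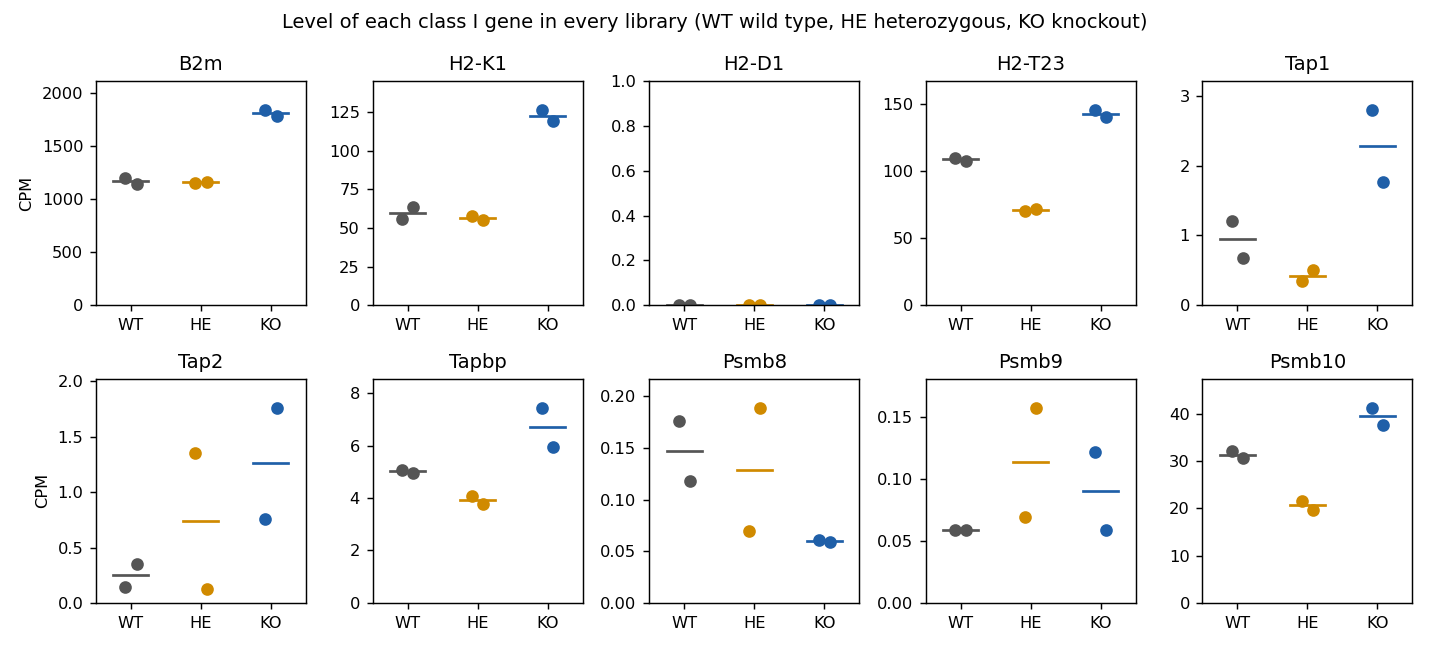
CPM (linear axis from 0) of each of the 10 genes in the 2 libraries of each genotype, with points for libraries and a line for their mean. B2m, H2-K1, H2-T23 and Psmb10 are highest in both knockout libraries, H2-T23 and Psmb10 are lowest in both heterozygous libraries, and H2-D1 is listed at 0 throughout.

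B2m (chromosome 2, 122147687 to 122153082, GRCm38), the light chain shared by all class I molecules, had 40630 and 38607 counts in wild type, 33110 and 36978 in heterozygous and 60450 and 60563 in knockout libraries. Scaled to library size, these were 1165 ± 41.1, 1156 ± 10.44 and 1805 ± 41.3 CPM (mean and standard deviation, SD, n = 2). Both knockout libraries lay above the other 4, while wild type and heterozygous overlapped. B2m rose 1.55-fold in knockout against wild type (log2 0.63 ± 0.02 SE, edgeR adjusted p = 4.2e-26) and 1.56-fold against heterozygous (log2 0.64 ± 0.02, edgeR adjusted p = 3.4e-26). Heterozygous and wild type differed by a log2 value of -0.01 ± 0.02 (edgeR adjusted p = 0.728). No stretch of 50 bases of its transcripts occurs in those of another gene.

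H2-K1 (chromosome 17, 33996012 to 34000619) encodes a classical heavy chain, the kind that presents peptides to CD8 T cells. It had 1902 and 2155 counts in wild type, 1660 and 1754 in heterozygous and 4162 and 4061 in knockout libraries, or 59.7 ± 5.31, 56.4 ± 1.70 and 123 ± 5.10 CPM (SD, n = 2). Both knockout libraries lay above the rest, and wild type and heterozygous overlapped. H2-K1 rose 2.06-fold in knockout against wild type (log2 1.04 ± 0.06 SE, edgeR adjusted p = 5.8e-20) and 2.18-fold against heterozygous (log2 1.12 ± 0.06, edgeR adjusted p = 9.5e-21). The heterozygous log2 fold change was -0.08 ± 0.06 (edgeR adjusted p = 0.282). This was -0.17 without wild-type library 1 (edgeR adjusted p = 0.0382) and 0.01 without wild-type library 2, in a range of p from 0.0382 to 0.936 over 14 alternatives. The gene lies in the stretch with few reads, and 9.63% of the 50-base stretches of its transcripts also occur in those of other genes, so its reads may be shared with other heavy chains to that extent.

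H2-D1 (chromosome 17, 35263094 to 35267497), the other classical heavy chain of the list, was listed at 0 in all 6 libraries. A count of 0 allows up to 3 counts per library, or 0.0880 to 0.104 CPM, for counting error only. The gene lies in the same stretch as Csnk2b and Bag6, also listed at 0, and no level is drawn from it.

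H2-T23 (chromosome 17, 36029977 to 36032701) encodes Qa-1, a non-classical heavy chain that presents leader peptides of other class I chains to receptors of natural killer cells. It had 3725 and 3653 counts in wild type, 2024 and 2284 in heterozygous and 4781 and 4779 in knockout libraries. The levels were 108.5 ± 1.40, 71.0 ± 1.16 and 143 ± 3.49 CPM (SD, n = 2), and the 3 genotypes did not overlap. H2-T23 rose 1.31-fold in knockout against wild type (log2 0.39 ± 0.04 SE, edgeR adjusted p = 4.3e-10). It fell in heterozygous against wild type (log2 -0.61 ± 0.05, edgeR adjusted p = 8.2e-15), and knockout stood 2.01-fold above heterozygous (log2 1.01 ± 0.05, edgeR adjusted p = 3.62e-22). Of its 50-base stretches, 13.6% also occur in transcripts of other genes.

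**Figure D3:**
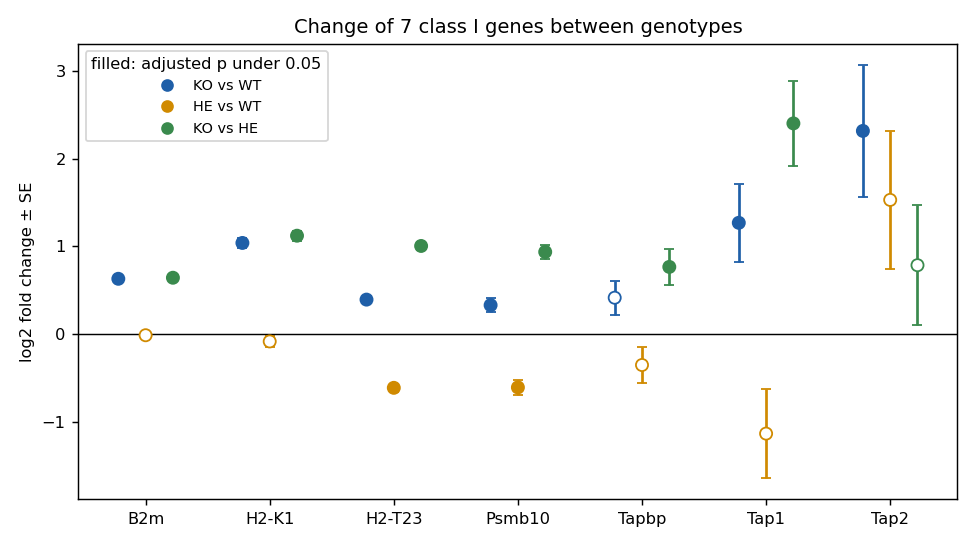
Log2 fold change with its SE for 7 class I genes in knockout (KO) against wild type (WT), heterozygous (HE) against wild type, and knockout against heterozygous, with filled points for an adjusted p under 0.05. B2m and H2-K1 lie near 0 in heterozygous against wild type, H2-T23 and Psmb10 lie at -0.61, and the error bars of Tap1 and Tap2 are the widest of the 7.

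Ratios within a library are free of the scaling between libraries. The share of H2-K1 in the counts of the heavy chains of the list was 33.8% and 37.1% in wild type, 45.1% and 43.4% in heterozygous and 46.5% and 45.9% in knockout libraries. Both wild-type libraries were thus lowest in H2-K1 relative to H2-T23. With H2-D1 listed at 0, the heavy chains counted here are H2-K1 and H2-T23, and H2-K1 lies in the stretch with few reads. These shares and the ratios to B2m are therefore as listed only. The log2 ratio of heavy chain counts to B2m counts was -2.85 and -2.73 in wild type, -3.17 and -3.20 in heterozygous and -2.76 and -2.78 in knockout libraries. The heterozygous libraries lay below the other 4, by 0.39 from wild type, while knockout differed from wild type by 0.03 with overlapping libraries. With 2 libraries against 2, an exact two-sided permutation test cannot go below p = 0.333, which it gave for each of these differences but the last, where p = 1. The difference of the last turned to -0.03 without wild-type library 1.

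The transporter and tapasin all lie in the stretch with few reads. Tap1 (34187556 to 34197225), whose product is one of the transporter's subunits, had 41 and 23 counts in wild type, 10 and 16 in heterozygous and 92 and 60 in knockout libraries. The genotypes did not overlap, and the highest library stood at 2.79 CPM. Tap1 rose in knockout against wild type (log2 1.27 ± 0.44 SE, edgeR adjusted p = 0.0195) and against heterozygous (log2 2.40 ± 0.49, edgeR adjusted p = 8.97e-05). The call against wild type was lost without wild-type library 2 (edgeR adjusted p = 0.191) and without knockout library 1 (edgeR adjusted p = 0.286), in a range from 0.00878 to 0.286 over 14 alternatives. Its heterozygous log2 fold change against wild type was -1.13 ± 0.51 (edgeR adjusted p = 0.0752), which passed without wild-type library 2 (edgeR adjusted p = 0.0292, range 0.0292 to 0.473).

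Tap2 (34204479 to 34216321), the partner subunit, had 5 and 12 counts in wild type, 39 and 4 in heterozygous and 25 and 60 in knockout libraries, so libraries of the same genotype differed as much as the genotypes. Its log2 fold change in knockout against wild type was 2.32 ± 0.76 (edgeR adjusted p = 0.0150). That call was lost in DESeq2 (adjusted p = 0.178) and without knockout library 2 (edgeR adjusted p = 0.236), in a range from 0.00115 to 0.236. The value itself came to 1.59 without knockout library 2 and 3.07 without wild-type library 2. Its fold changes against the heterozygous group turned in sign with the heterozygous library left out. The log2 value of heterozygous against wild type was 1.53 with both libraries (edgeR adjusted p = 0.128), 2.41 without heterozygous library 2 (edgeR adjusted p = 0.00413) and -0.97 without heterozygous library 1. It was 2.28 without wild-type library 2 (edgeR adjusted p = 0.0373), in a range of p from 0.00413 to 0.550 over 14 alternatives. In knockout against heterozygous it was 0.79 with both (edgeR adjusted p = 0.404), 3.28 without heterozygous library 1 (edgeR adjusted p = 0.00839) and -0.10 without heterozygous library 2, in a range of p from 0.00839 to 0.978.

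Tapbp (33919478 to 33929290), which encodes tapasin, had 173 and 168 counts in wild type, 118 and 120 in heterozygous and 245 and 203 in knockout libraries, or 5.01 ± 0.0997, 3.93 ± 0.225 and 6.69 ± 1.05 CPM (SD, n = 2). Its order of the genotypes was that of H2-T23, and they did not overlap. Tapbp rose in knockout against heterozygous (log2 0.77 ± 0.20 SE, edgeR adjusted p = 0.00194), a call lost without knockout library 1 (edgeR adjusted p = 0.0690, range 0.000756 to 0.0690 over 14 alternatives). Its log2 fold change was 0.42 ± 0.19 in knockout against wild type (edgeR adjusted p = 0.0904), and -0.35 ± 0.20 for heterozygous (edgeR adjusted p = 0.179), and neither passed.

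Psmb10 (chromosome 8, 105935728 to 105938392) encodes the immunoproteasome subunit that takes the place of the Psmb7 product, and it is the subunit gene of the list outside the stretch with few reads. It had 1094 and 1042 counts in wild type, 624 and 625 in heterozygous and 1361 and 1287 in knockout libraries, or 31.4 ± 1.05, 20.6 ± 1.40 and 39.5 ± 2.52 CPM (SD, n = 2). No genotype overlapped another. Psmb10 rose 1.26-fold in knockout against wild type (log2 0.33 ± 0.08 SE, edgeR adjusted p = 0.000705) and 1.91-fold against heterozygous (log2 0.94 ± 0.08, edgeR adjusted p = 1.11e-12). It fell in heterozygous against wild type (log2 -0.61 ± 0.08, edgeR adjusted p = 9.57e-08).

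Psmb8 (34198195 to 34201454) had 6 and 4 counts in wild type, 2 and 6 in heterozygous and 2 and 2 in knockout libraries. Psmb9 (34182030 to 34187330) had 2 and 2, 2 and 5, and 4 and 2 counts. Both encode catalytic subunits of the immunoproteasome, and both lie in the stretch with few reads. At a limit of 3 counts per library no fold change is given for them, and a difference was not detectable at this depth.

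The immunoproteasome was set against its constitutive counterparts within each library. The log2 ratio of Psmb8, Psmb9 and Psmb10 counts to Psmb5, Psmb6 and Psmb7 counts was -1.69 and -1.73 in wild type, -1.98 and -2.09 in heterozygous and -1.26 and -1.39 in knockout libraries. Nearly all reads of the upper term belong to Psmb10, and most of the lower term to Psmb5 and Psmb7. Psmb10 over Psmb7 alone gave -0.99 and -1.07, -1.23 and -1.46, and -0.48 and -0.62. The knockout libraries were highest and the heterozygous lowest in both ratios, with no overlap. The exact permutation test gave p = 0.333 for each pair of genotypes, the smallest it can give, so the differences of 0.39 (knockout minus wild type), -0.32 (heterozygous minus wild type) and 0.71 (knockout minus heterozygous) are given as a description.

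Of 15 tested genes of the other core subunits and their assembly factors, 0 rose and 7 fell in knockout against wild type, with a median log2 fold change of -0.17. Over all tested genes, 19.2% were called higher and 18.9% lower there, and 19.2% and 19.7% in heterozygous against wild type. Among them Psmb4, a structural subunit, was lower by -0.19 ± 0.04 (SE, edgeR adjusted p = 0.000411). For heterozygous, 13 of the 15 fell against wild type and 0 rose, with a median of -0.28, and Pomp, the assembly factor of the core, was lower by -0.48 ± 0.06 (edgeR adjusted p = 9.36e-09). In knockout against heterozygous 7 rose and 0 fell, where 19.1% of all tested genes were called higher and 17.9% lower. The regulatory particle, the cap that takes in ubiquitin-tagged proteins, had 1 gene that rose (Psmd8, named after its value was seen) and 10 that fell of 21 in knockout against wild type, 0 and 18 in heterozygous against wild type, and 9 and 0 in knockout against heterozygous. Of the catalytic subunits, Psmb5 had a log2 fold change of 0.06 ± 0.07 in knockout against wild type (edgeR adjusted p = 0.550). Psmb7 had one of -0.15 ± 0.06, which passed (edgeR adjusted p = 0.0358). Psmb6 had few reads, with 49 and 53 counts in wild type, 171 and 49 in heterozygous and 64 and 65 in knockout libraries. Its call in heterozygous against wild type (log2 1.31 ± 0.44, edgeR adjusted p = 0.0229) rests on heterozygous library 1. Psmb6 lies outside the stretch with few reads, yet its wild-type mean was 1.5 CPM, beside 37.9 for Psmb5 and 64.2 for Psmb7. What leaves Psmb6 with few counts was not tested.

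The proteasome activator genes Psme1 and Psme2 encode the subunits of PA28, a cap that interferon-gamma raises. Psme1 had 73.6 ± 3.14, 59.0 ± 4.05 and 86.5 ± 1.81 CPM in wild type, heterozygous and knockout (SD, n = 2), rose in knockout against wild type (log2 0.23 ± 0.06 SE, edgeR adjusted p = 0.000602) and fell in heterozygous against wild type (log2 -0.32 ± 0.06, edgeR adjusted p = 1.11e-05). Psme2 had 41.2 ± 0.360, 26.6 ± 0.311 and 39.6 ± 1.34 CPM. It fell in heterozygous against wild type (log2 -0.63 ± 0.07, edgeR adjusted p = 2.06e-09), whereas its log2 fold change in knockout against wild type was -0.06 ± 0.07 (edgeR adjusted p = 0.582).

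Among other class I and class I-like heavy chains, 34 were in the table, 15 had no reads and 12 were tested. In knockout against wild type 7 of the 12 rose and 0 fell, with a median log2 fold change of 0.53. Over all tested genes, 19.2% were called higher and 18.9% lower there. Among the 7 are H2-Q6 and H2-Q7, which lie in the stretch with few reads. They had at most 36 and 23 counts in any library, so their calls rest on few reads. H2-Q7 also shares part of its transcript sequence with H2-K1, so reads may be shared between them. H2-T24, a neighbour of H2-T23 in the same gene cluster, had 1088 and 1007 counts in wild type, 548 and 577 in heterozygous and 2408 and 2596 in knockout libraries. It rose in knockout against wild type (log2 1.28 ± 0.07 SE, edgeR adjusted p = 9.55e-20) and fell in heterozygous against wild type (log2 -0.73 ± 0.08, edgeR adjusted p = 1.45e-10), so its order of genotypes was that of H2-T23 with a wider span. Cd1d1, which presents lipids, stood at 1.99 ± 0.144, 3.21 ± 0.175 and 5.21 ± 0.780 CPM (SD, n = 2) and rose in knockout against wild type (log2 1.39 ± 0.25 SE, edgeR adjusted p = 1.16e-05).

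Fcgrt and Hfe, heavy chain-like genes outside peptide presentation, had other orders. Fcgrt, the neonatal Fc receptor that recycles antibodies, had 2831 and 2803 counts in wild type, 4374 and 4558 in heterozygous and 3303 and 3258 in knockout libraries. It was highest in both heterozygous libraries, by a log2 fold change of 0.83 ± 0.05 against wild type (SE, edgeR adjusted p = 2.03e-19). Hfe, which regulates iron uptake, rose in heterozygous (log2 0.54 ± 0.07, edgeR adjusted p = 5.64e-08) and in knockout (log2 0.47 ± 0.07, edgeR adjusted p = 8.09e-07) against wild type. Both bind beta-2-microglobulin, as class I heavy chains do. In heterozygous against wild type 3 of the 12 rose and 2 fell, near the 19.2% and 19.7% of all tested genes called higher and lower. In knockout against heterozygous 5 rose and 1, Fcgrt, fell, where 19.1% and 17.9% of all tested genes were called higher and lower. H2-T22, another gene of that cluster, fell in heterozygous against wild type (log2 -0.50 ± 0.06, edgeR adjusted p = 4.84e-09).

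The partners of peptide loading and trimming showed no common direction, with 3 of 10 that rose and 3 that fell in knockout against wild type and a median of -0.01. Erap1, the peptidase that trims peptides inside the endoplasmic reticulum, had 2014 and 1955 counts in wild type, 1559 and 1909 in heterozygous and 2802 and 2928 in knockout libraries. It rose in knockout against wild type (log2 0.55 ± 0.06 SE, edgeR adjusted p = 6.23e-11) and against heterozygous (log2 0.58 ± 0.06, edgeR adjusted p = 2.32e-11). Sec61a1, the main subunit of the protein channel into the endoplasmic reticulum, and the chaperone Hspa5 fell in knockout against wild type, by log2 values of -0.37 ± 0.03 and -0.08 ± 0.02 (SE, edgeR adjusted p = 1.58e-13 and 0.00164). The heterozygous libraries had 1 that rose and 6 that fell against wild type. In knockout against heterozygous 6 rose and 1 fell, and Tapbpl, a relative of tapasin that edits peptides, was among the 6 (log2 0.49 ± 0.11, edgeR adjusted p = 0.000487). The shares of all tested genes called higher and lower were 19.2% and 18.9%, 19.2% and 19.7%, and 19.1% and 17.9%, in these comparisons in turn.

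Of 19 regulators of class I genes, 10 rose and 0 fell in knockout against wild type, with a median log2 fold change of 0.13. Over all tested genes, 19.2% were called higher and 18.9% lower. Nlrc5, the transactivator that acts at class I promoters, had 1038 and 1237 counts in wild type, 984 and 1145 in heterozygous and 2094 and 2079 in knockout libraries. Both knockout libraries lay above the other 4, and wild type and heterozygous overlapped, as for B2m and H2-K1. Nlrc5 rose in knockout against wild type (log2 0.90 ± 0.07 SE, edgeR adjusted p = 4.7e-14), and its log2 fold change in heterozygous against wild type was 0.07 ± 0.08 (edgeR adjusted p = 0.517). Jak1, a kinase of the interferon receptors, rose by 0.34 ± 0.03 in knockout (edgeR adjusted p = 4.85e-13) and by 0.39 ± 0.03 in heterozygous (edgeR adjusted p = 9.7e-15) against wild type.

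Irf7, a factor that carries the interferon response, was lowest in the heterozygous libraries. Irf7 had 2363 and 2474 counts in wild type, 903 and 869 in heterozygous and 3523 and 3584 in knockout libraries. It rose in knockout (log2 0.58 ± 0.06 SE, edgeR adjusted p = 1.16e-11) and fell in heterozygous (log2 -1.28 ± 0.06, edgeR adjusted p = 4.13e-21) against wild type. Stat2, a subunit of the factor that type I interferons activate, had the same order, with a rise of 0.27 ± 0.04 in knockout (edgeR adjusted p = 3.92e-08) and a log2 value of -0.43 ± 0.04 in heterozygous (edgeR adjusted p = 5.17e-13). Of the 19 regulators 2 rose and 7 fell in heterozygous against wild type, and 11 rose and 0 fell in knockout against heterozygous. The shares of all tested genes called higher and lower were 19.2% and 19.7%, and 19.1% and 17.9%, in these comparisons in turn.

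**Figure D4:**
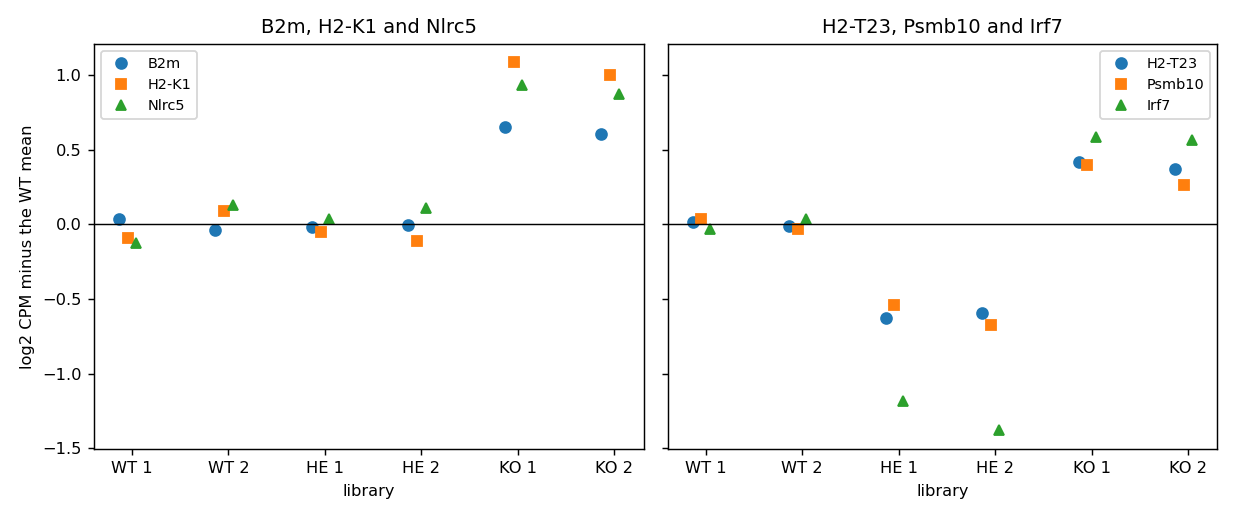
Log2 CPM of each library minus the mean of the wild-type libraries, for B2m, H2-K1 and Nlrc5 (left) and for H2-T23, Psmb10 and Irf7 (right), in the 6 libraries. On the left the heterozygous points lie within 0.12 of 0 and the knockout points from 0.61 to 1.08, and on the right the heterozygous points lie between -1.38 and -0.54.

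The members thus differed in the heterozygous group. Among the 4 whose log2 CPM averaged at least 3, the root mean square difference of centred log2 CPM over the 6 libraries was 0.0644 between H2-T23 and Psmb10, and 0.225 to 0.311 between any other pair. This is a description over libraries that share their depth and scaling. The mean profile of the 10 members, used next, takes H2-D1 as unchanged across libraries and includes Psmb8 and Psmb9, which have few reads. The genes nearest to the mean profile of the 10 members, of 9657 candidates, were Parp14 at a root mean square difference of 0.0304, Ms4a6b at 0.0422, Ms4a6c at 0.0457, Slco4a1 at 0.0510 and Hcls1 at 0.0530. Parp14 had 168 and 172 CPM in wild type, 160 and 145 in heterozygous and 246 and 243 in knockout libraries, so its levels were highest in both knockout libraries. With the mean taken over the 4 better counted members, a choice made after the counts were seen, the nearest were Pilra, Mt1, Trim30a, Clec5a and Il2rg, and 0 of the 5 were shared.

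Interferon-stimulated genes moved in both comparisons with wild type, in opposite directions. In knockout against wild type 23 of 33 rose and 1 fell, with a median of 0.33. Ly6e rose by 0.41 ± 0.03 (SE, edgeR adjusted p = 3.09e-16), and Ifit2 by 0.70 ± 0.06 (edgeR adjusted p = 4.32e-13). The gene that fell was Isg15, named after its value was seen (log2 -0.30 ± 0.06, edgeR adjusted p = 5.47e-05). In heterozygous against wild type 0 rose and 31 fell, with a median of -0.95, and Isg15 was lower by -2.03 ± 0.07 (edgeR adjusted p = 5.88e-27). In knockout against heterozygous all 33 rose, with a median of 1.33. The shares of all tested genes called higher and lower were 19.2% and 18.9%, 19.2% and 19.7%, and 19.1% and 17.9%, in these comparisons in turn. The 10 interferon genes searched, Ifng and Ifnb1 among them, were listed at 0 in all libraries, which allows up to 3 counts in each. Their 4 receptor genes were read, and Ifnar2, a chain of the type I receptor, rose by 0.23 ± 0.04 in knockout (edgeR adjusted p = 4.75e-05) and 0.45 ± 0.04 in heterozygous (edgeR adjusted p = 2.56e-11) against wild type.

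**Figure D5:**
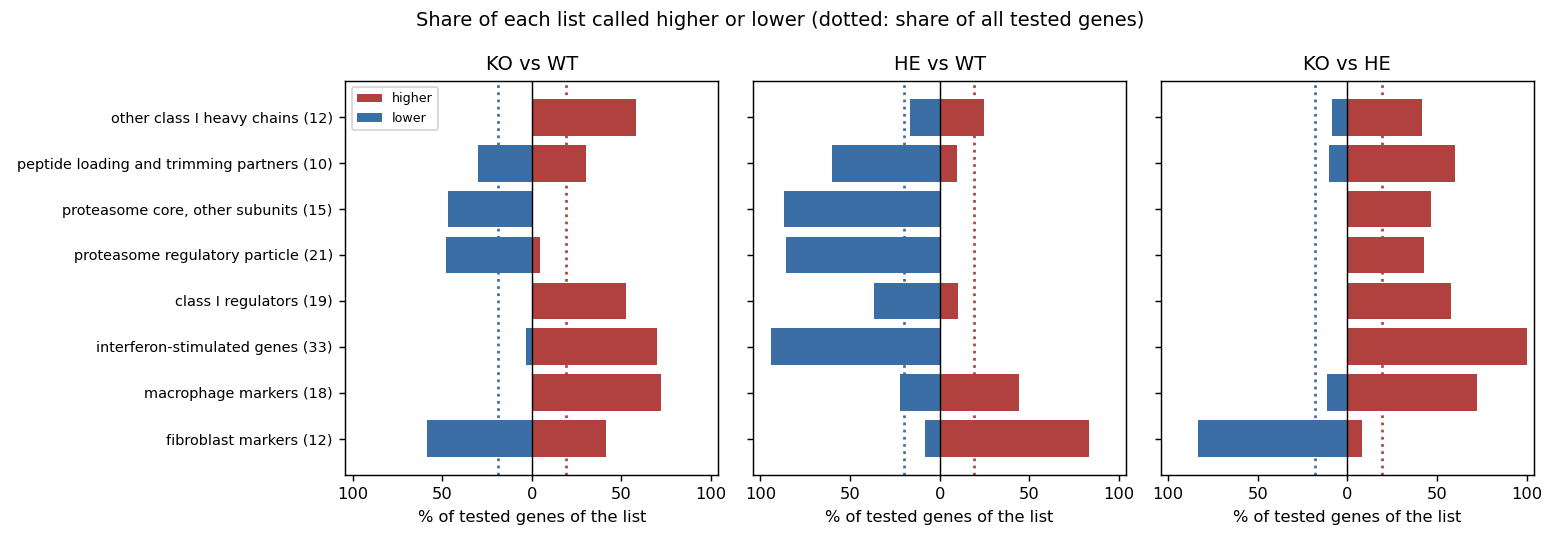
Share of the tested genes of 8 lists called higher (red, to the right) or lower (blue, to the left) in each comparison, in percent, with the number tested in parentheses and dotted lines for the share of all tested genes. Interferon-stimulated genes were called higher in 23 of 33 in knockout against wild type, lower in 31 of 33 in heterozygous against wild type and higher in 33 of 33 in knockout against heterozygous.

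Markers of other cell types moved beside these genes. Of 18 macrophage markers 13 rose and 0 fell in knockout against wild type, with a median of 0.30. Over all tested genes, 19.2% were called higher and 18.9% lower. Adgre1, Lyz2 and C1qa, named after their values were seen, were not called. Mrc1, the mannose receptor, rose by 1.28 ± 0.02 (SE, edgeR adjusted p = 9.11e-39), Itgam by 0.61 ± 0.02 (edgeR adjusted p = 5.04e-25) and Ptprc, which marks all blood-derived cells, by 0.70 ± 0.03 (edgeR adjusted p = 4.46e-21). In heterozygous against wild type 8 rose and 4 fell, and Mrc1 rose by 1.30 ± 0.02 there (edgeR adjusted p = 3.62e-39), where B2m and H2-K1 did not pass. In knockout against heterozygous 13 rose and 2 fell, Adgre1 and Lyz2 (log2 -0.39 ± 0.03 and -0.33 ± 0.02 SE). The shares of all tested genes called higher and lower were 19.2% and 19.7%, and 19.1% and 17.9%, in these comparisons in turn. Of 12 fibroblast markers 5 rose and 7 fell in knockout against wild type, and 10 rose and 1 fell in heterozygous against wild type. Of 14 T, B and NK cell markers 9 were listed at 0, with a summed level of 0.147 to 2.01 CPM per library, and dendritic cell markers summed to 8.36 to 15.9 CPM. The part of the macrophage and fibroblast markers in the class I differences was not tested.

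Of 15 listed genes of immune receptors and ligands, not all of which bind class I molecules, 6 were tested. In knockout against wild type 2 rose and 1 fell, with a median log2 fold change of -0.20. Of all tested genes 19.2% were called higher and 18.9% lower. The 2 that rose, Pirb and Lilrb4a, encode inhibitory receptors of myeloid cells. Pirb had 4074 and 4184 counts in wild type, 4868 and 5064 in heterozygous and 7200 and 7339 in knockout libraries, and rose in knockout against wild type (log2 0.84 ± 0.04 SE, edgeR adjusted p = 2.7e-22). It encodes an inhibitory receptor for class I molecules on macrophages and B cells. Lilrb4a, an inhibitory receptor of the same family, rose by 0.79 ± 0.02 (edgeR adjusted p = 8.12e-29). Both also rose in heterozygous against wild type, by 0.43 ± 0.04 and 0.17 ± 0.02 (edgeR adjusted p = 1.18e-12 and 1.25e-07). The T cell coreceptor genes Cd8a and Cd8b1 were listed at 0 in all libraries. Ulbp1, a ligand of the natural killer receptor NKG2D, fell in knockout against wild type (log2 -0.27 ± 0.11, edgeR adjusted p = 0.0423) and rose in heterozygous against wild type (log2 0.49 ± 0.10, edgeR adjusted p = 0.000109).

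Of the class II pathway, which presents peptides from outside the cell, 11 genes were in the table and 2 were tested, H2-DMb1 and Cd74. Cd74, the invariant chain, stood at 1.75 ± 0.0193, 1.54 ± 0.314 and 2.76 ± 0.130 CPM (SD, n = 2) and rose in knockout against heterozygous (log2 0.84 ± 0.33 SE, edgeR adjusted p = 0.0399). H2-DMb1, a chain of the chaperone that loads class II molecules, had 110 and 95 counts in wild type, 75 and 88 in heterozygous and 59 and 53 in knockout libraries, and fell in knockout against wild type (log2 -0.85 ± 0.30, edgeR adjusted p = 0.0206). The H2 genes of this list lie in the stretch with few reads.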

How the data were processed

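RNA was sequenced in 6 libraries, 2 for each of 3 Chsy3 genotypes. The authors deposited 1 table of read counts per gene symbol, whole numbers as judged from the values. Per the submitters' processing notes, reads were handled with HISAT2 version 2.0.4 and the build GRCm38. With the read counter, annotation and strand setting not given in the sources used here, reads of near-identical heavy chain genes and of overlapping genes may have been split or shared. Columns were assigned to libraries by title, and 0 entries named no gene.

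Differences were computed in edgeR version 4.0.16 (R version 4.3.3), with TMM factors of 0.974 to 1.02, the default filter by group with Chsy3 and the members kept, and 1 robust quasi-likelihood fit of all 6 libraries with 3 residual degrees of freedom. P-values are two-sided and Benjamini-Hochberg adjusted over 16063 genes, with a threshold of 0.05. The SE is the size of the log2 fold change divided by the root of F. CPM are counts over the scaled library size, and log2 CPM use a prior count of 2. Replicates differed beyond counting noise, with a median chi-square of 1.57 to 1.60 against 0.455. The procedure was also run on simulated counts, with the spread taken from these libraries and far fewer genes changed than were called here. That run cannot show how the calls behave under so broad a change.

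The members and gene lists were chosen with earlier results of these data known. All members are named, and every tested gene of lists with up to 8 tested genes may be, otherwise the 4 with the smallest p in the comparison. Nearest genes had the smallest root mean square difference of centred log2 CPM among genes with a mean of at least 3. Positions, start sites and sequences are credited to RefSeq (GRCm38.p6). Shared 50-base stretches were counted in the GENCODE transcripts of the same build. Alternatives were DESeq2 version 1.42.0, RLE factors, library totals, other filters, 4 libraries alone, a replicate block, no robust estimation and each library left out. The planned ratio of H2-K1 to H2-D1 and the pairs Psmb8 to Psmb5 and Psmb9 to Psmb6 were not computed, since H2-D1, Psmb8 and Psmb9 are at or near 0. Protein sequences were not used here.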

Additional observations from a re-analysis of the deposited data

How the results depend on the processing

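B2m, H2-K1, H2-T23 and Psmb10 kept their direction and their call in knockout against wild type and against heterozygous under all 14 alternatives. Over them 5 to 6 members were called in knockout against wild type, 2 to 4 in heterozygous against wild type and 5 to 7 in knockout against heterozygous, beside 5053 to 6250, 5185 to 6395 and 4824 to 6383 of all genes. Without wild-type library 2, 4 members were called in heterozygous against wild type, 1 higher and 3 lower, where 2 had been, and with a library left out the count lay between 2 and 4. Values near 0 or on few reads changed sign. In heterozygous against wild type the log2 fold change with a library left out ranged from -0.0485 to 0.0245 for B2m (0.0009 without heterozygous library 1), from -0.1707 to 0.0102 for H2-K1 and from -0.97 to 2.41 for Tap2. In knockout against heterozygous it ranged from -0.10 to 3.28 for Tap2. The heavy chain to B2m ratio in knockout against wild type lay between -0.0339 and 0.0855 with a library left out. The cause was not tested. With library totals in place of TMM factors, 64.6% of the calls in knockout against heterozygous were higher, against 51.6%. Deviations of same-numbered libraries correlated at -0.0247, 0.0092 and 0.0221 across genes, so no shift shared by replicate number was seen. With 2 libraries a group this cannot show whether equal numbers mark a shared animal or day. With the replicate block 6, 2 and 6 members and 6082, 6217 and 5913 genes were called. The list of nearest genes shared 0 of 5 when only the better counted members were averaged. Tap1, Tap2, Tapbp, Psmb8, Psmb9 and H2-D1 are limited by depth and by the stretch with few reads. In all, 421 of the alternative values were classed as the same as the main value, 5 as weaker, 6 as stronger, 6 as reversed and 1 as moved. For the fold change of a gene, same means the same direction and side of the threshold. For counts of calls it means a count of similar size. For ratios it means the same direction and a shift smaller than the SD within genotypes. With 2 libraries a group, leaving a library out cannot shift a ratio beyond that SD. Such values could only be classed as same or reversed, so their label says nothing about the size of the shift.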

Other observations

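Some genes of the stretch with few reads fell where class I genes rose, and those named here were chosen after their values were seen. Slc39a7, a zinc transporter gene near H2-K1, had 138 and 202 counts in wild type, 14 and 16 in heterozygous and 20 and 16 in knockout libraries, and fell in knockout (log2 -3.21 ± 0.36 SE, edgeR adjusted p = 6.72e-10) and in heterozygous (log2 -3.33 ± 0.37, edgeR adjusted p = 6.04e-10) against wild type. Vars, a valyl-tRNA synthetase gene, had 125 and 115 counts in wild type, 44 and 34 in heterozygous and 26 and 12 in knockout libraries, and fell in both as well (log2 -2.63 ± 0.39 and -1.45 ± 0.36, edgeR adjusted p = 3.62e-07 and 0.0011). Of the 31 tested genes of the stretch 7 rose and 6 fell in knockout against wild type, where 19.2% of all tested genes were called higher and 18.9% lower, so these counts are near the background. C4b, a complement gene among the 7, had 239 and 265 counts in wild type and 501 and 438 in knockout libraries. Between H2-K1 and H2-T23, 49 of 162 genes were tested, of which 10 rose and 9 fell in knockout against wild type, again near the background.

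H2-Q5, a heavy chain gene outside the lists used above, had 135 and 110 counts in wild type, 111 and 96 in heterozygous and 262 and 265 in knockout libraries. It rose in knockout against wild type (log2 1.12 ± 0.20 SE, edgeR adjusted p = 1.34e-05), and its order of genotypes was that of B2m and H2-K1. Whether H2-Q5 lies in the stretch with few reads, or shares transcript sequence with H2-K1, was not tested. The heavy chain genes H2-Q10 and H2-Q7 do share such sequence with H2-K1. The order of H2-Q5 is therefore as listed only, and may not be independent of that of H2-K1.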
